A study of Mus musculus with 6 samples.

Results

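The genes described here encode the proteins of the mitochondrial ribosome. They were taken as every gene on the array whose symbol starts with Mrpl or Mrps followed by a digit, which gave 76 of the 17711 named genes on the array, read by 131 probes. Of these, 48 carried an Mrpl name and 28 an Mrps name. RNA came from the quadriceps femoris, a thigh muscle, of mice of 2 groups on a C57BL/6 background. The transgenic mice carried RORalpha1delDE, a human RORalpha1 without its E region and without a piece of the hinge next to it, under the human skeletal alpha-actin promoter, which is active in skeletal muscle. The wild-type mice did not carry it. All mice lived on a 12 h light cycle with a diet of 4.6% fat, were fasted overnight and were killed in the morning. Their age and sex are not given in the labels used here, nor is the number of mice or of transgenic lines. There were 3 arrays for each group on 1 chip, and the comparison asks which of these transcripts differ between transgenic and wild-type muscle.

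The mitochondrial ribosome translates the few messages of mitochondrial DNA, nearly all of which encode core subunits of the respiratory chain and ATP synthase. Its RNA is made inside the organelle, while all of its proteins are made from nuclear genes and imported. In the common ribosome nomenclature, proteins that share a name and place with a bacterial ribosomal protein are called bacterial-type here, and those with a name of their own are called mitochondria-specific. Mrps18a and Mrps18b count as mitochondria-specific by that naming, although both are relatives of a bacterial protein. The large subunit joins amino acids and holds the exit tunnel, and the small subunit reads the message. Muscle is rich in mitochondria, and inherited defects of these proteins in humans impair respiration in muscle, heart and brain.

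Each array detected 13979 to 14887 probes, at a median signal of 154.5 to 174.9. Arrays 1 and 2 of each group could not be told apart, since what separated them at 1 probe was almost unrelated to what separated them at another probe of that gene, across 525 genes (r = 0.0316 in the transgenic group and 0.0341 in the wild-type group) and 0 of 5236 bright probes differed by over 2-fold. They were counted as 1 sample, array 3 as the other, so that n = 2 samples a group. Array 3 stood apart in both groups, with 55 to 101 bright probes over 2-fold from arrays 1 and 2. Transgenic array 3 was low in slow-fibre transcripts: Tnni1, the slow troponin I, stood at 11.05, 10.98 and 5.40 on the transgenic arrays and at 10.70, 10.65 and 10.84 on the wild-type arrays, in normalised log2 signal. Skeletal muscle markers were high on all arrays, with Acta1, the muscle actin, between 15.58 and 15.69. Among 7 brown adipocyte markers, Ucp1, which uncouples respiration in brown fat to make heat, was detected on 0 transgenic arrays and on 3 wild-type arrays. In the bulk muscle, fewer cells of a type and less RNA per cell cannot be told apart.

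Of the 76 genes, 70 had at least 1 probe detected on 3 or more arrays and were compared, through 100 probes. The other 6 were Mrpl32, Mrpl41, Mrpl45, Mrps14, Mrps22 and Mrps36, whose probes were detected on no array. Mrps36 shares the name but is now known as a part of the oxoglutarate dehydrogenase complex, so it was given no subunit. A total of 97 of the 100 probes were detected on all 6 arrays and 3 on 5 of them, so no kept member rested on detection in 1 group alone. Of the 31 member probes left out, 28 were detected on no array.

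No mitochondrial ribosomal protein transcript differed between transgenic and wild-type muscle by the test used, and the differences were small. With limma on the averaged samples, 0 of 100 member probes were higher and 0 lower at an adjusted p under 0.05, against 0.0% of all 14420 kept probes higher and 0.00693% lower, the 1 probe of Ucp1. The smallest adjusted p of a member was 0.638. With the 6 arrays taken as separate samples, limma again called 0 member probes, where 0.139% of all probes were called higher and 0.236% lower. At an unadjusted p under 0.05, 1 member probe was lower and 0 were higher in limma on the averaged samples, against 4.15% lower and 3.49% higher among all probes. With 6 separate arrays 6 member probes passed that mark in either direction, against 15.0% of all probes.

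Taking for each gene the probe with the highest mean signal, the 70 log2 differences, transgenic minus wild type, had a median of 0.017, with 37 genes above 0 and 33 below. Over all 8397 kept genes the median was 0.044 and 57.5% lay above 0. The middle of the family ran from -0.061 to 0.086 (quartiles), and the extremes were Mrps18b at -0.42 and Mrps12 at 0.38. Differences of at least 1.25-fold were seen in 5 of the 70 genes (7.14%), against 24.3% of all kept genes, and 0 reached 2-fold, against 1.39% of all kept genes. The median size of the difference, sign aside, was 0.078 in the family and 0.174 over all kept genes. Small differences were not particular to this family. The median size was 0.076 in respiratory chain and ATP synthase subunits and 0.066 in cytosolic ribosomal protein genes. Differences of at least 1.25-fold were seen in 7 of 70 and 2 of 50 kept genes of those families. None of these comparisons was matched for signal, so the part of signal level in the size of the differences was not tested.

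These small differences came with errors similar to those of all genes. In limma each error is drawn towards a value common to all probes, so the likeness was partly built in. The intervals cover only the spread between 2 samples a group, which may be technical. They are therefore no bound on a difference between the genotypes. The median standard error was 0.19 for the family and 0.20 for all genes. The 95% interval of the difference stayed within 2-fold in either direction for 70 of 70 genes of the family, and for 84.3% of all kept genes. A p above the threshold does not show that a transcript was equal in both groups. Summed over the 70 genes on the linear scale, the normalised signal was 243083 in transgenic arrays 1 and 2 and 246994 in transgenic array 3, against 233974 in wild-type arrays 1 and 2 and 257159 in wild-type array 3. Both transgenic sums lay between the wild-type sums.

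**Figure D1:**
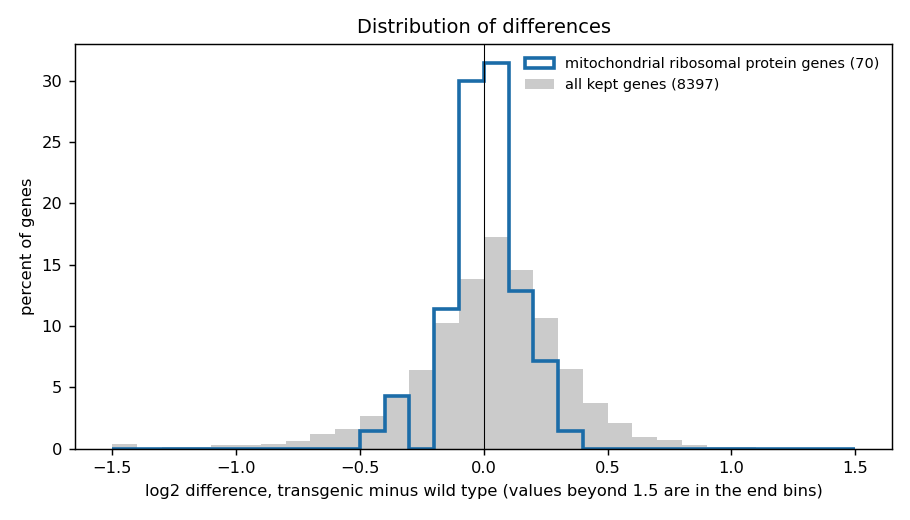
Histogram of log2 differences, transgenic minus wild type, for the 70 mitochondrial ribosomal protein genes (blue outline) and for all 8397 kept genes (grey), as percent of genes in each bin. The family lies close to 0, between -0.42 and 0.38, while all kept genes spread further on both sides. The sets differ in number of genes and were not matched for signal.

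Mrps30 and Mrps18a belong to the large subunit despite their names and were counted there. By subunit, 26 of 47 large-subunit genes and 11 of 23 small-subunit genes lay above 0, with median differences of 0.026 and -0.025. The 28 large bacterial-type genes had a median of 0.0083 and the 19 large mitochondria-specific genes one of 0.026. The 14 small bacterial-type genes had a median of -0.0068 and the 9 small mitochondria-specific genes one of -0.051. At an unadjusted p under 0.05 in limma on the averaged samples, 0 of the 70 genes were higher and 0 lower, against 3.85% and 3.27% of all kept genes. Without wild-type array 3 the small-subunit median was 0.014 and the family median 0.092, with 50 of 70 genes above 0.

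**Figure D2:**
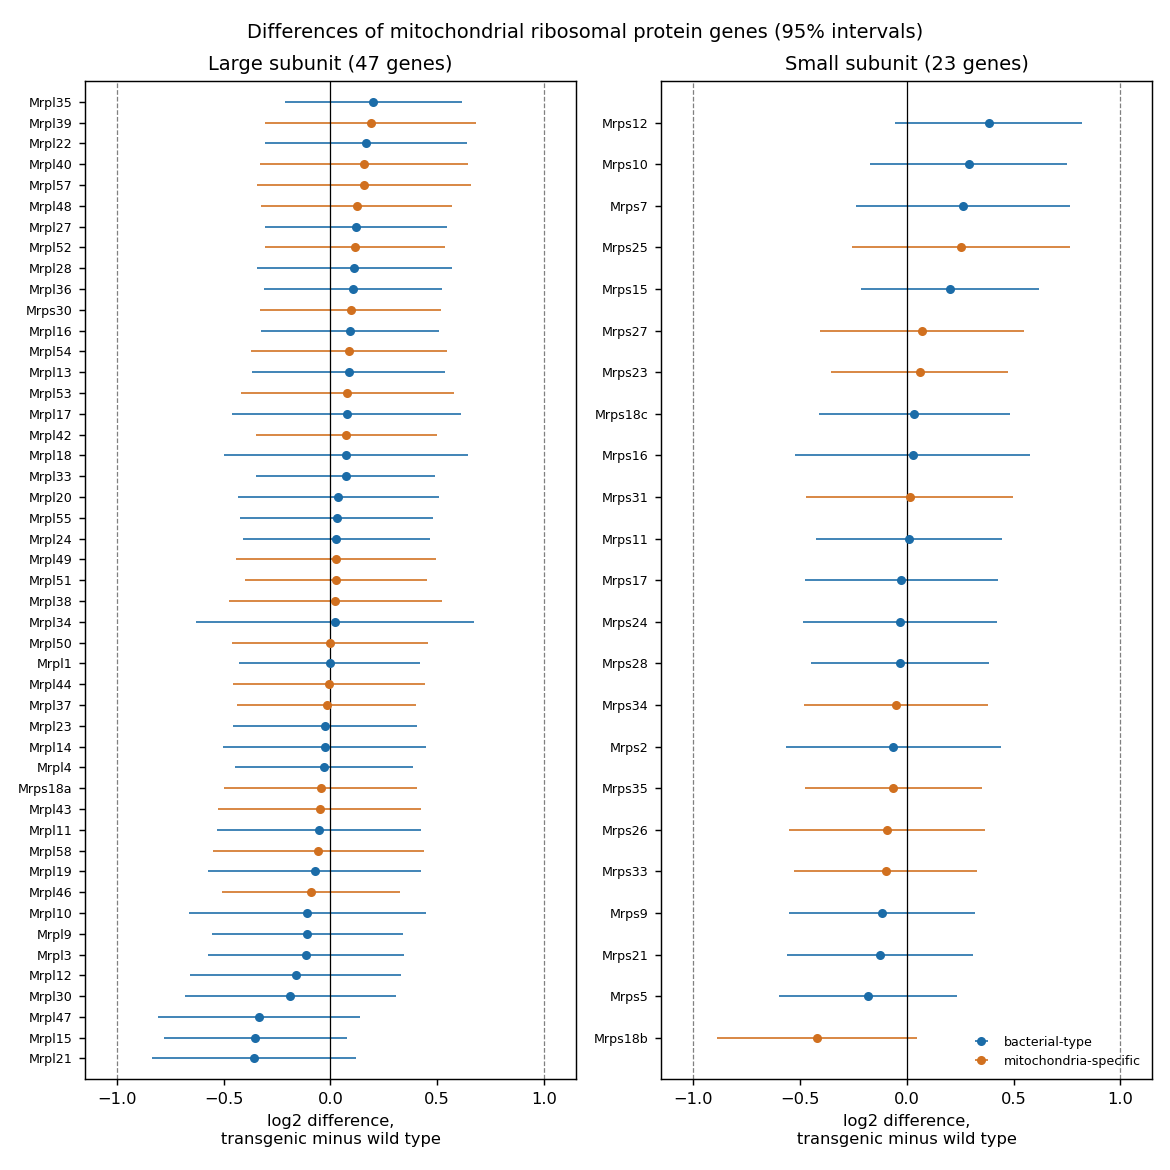
Log2 difference, transgenic minus wild type, of each of 47 large-subunit and 23 small-subunit genes (points) with its 95% interval from limma (lines), sorted by size. Colours mark bacterial-type and mitochondria-specific proteins, dashed lines mark 2-fold in either direction, and every interval lies between them and crosses 0.

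The 3 transgenic arrays lay wholly above the 3 wild-type arrays for 5 genes of the family (7.14%) and wholly below for 6 (8.57%). The same was true of 14.2% and 8.22% of all kept genes, so the count above was below the background share and the count below was close to it. These 11 genes were picked by the gap between arrays and not by size. They hold the extremes, Mrps12 and Mrps18b, but also Mrpl46 at -0.09 and Mrpl16 at 0.09. Mrps7, at 0.26, differed by more than those on arrays that overlapped.

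Promoter windows of 67 of the 76 genes were found in RefSeq (GRCm38.p6), each from 250 bases before to 50 after the gene's start. The 4 windows below belong to the gene with the largest positive and the one with the largest negative difference, to a start region shared by 2 members, and to Mrpl9, the 1 gene with the full NRF1 sequence that has 2 kept probes. Some genes have several windows, and a match in any of them is counted. NRF1, the ETS factor GABP and YY1 are known regulators of nuclear genes for mitochondrial proteins, and ROR receptors bind AGGTCA or GGGTCA after a T. Capitals mark GCATGCGC, the inner part of the NRF1 sequence, the ETS sequence CCGGAAG and the YY1 sequence AAGATGGC, each read on both strands, so CTTCCGG and GCCATCTT are the same ETS and YY1 letters on the other strand.
Mrps12, chr7:28741772-28742071, minus strand: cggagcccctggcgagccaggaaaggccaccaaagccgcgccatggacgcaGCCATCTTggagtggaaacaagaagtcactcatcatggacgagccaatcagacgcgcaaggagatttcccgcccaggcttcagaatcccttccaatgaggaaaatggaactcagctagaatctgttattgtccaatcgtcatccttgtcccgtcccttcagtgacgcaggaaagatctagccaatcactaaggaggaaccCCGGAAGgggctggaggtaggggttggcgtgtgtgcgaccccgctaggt
Mrps18b, chr17:35916391-35916690, minus strand: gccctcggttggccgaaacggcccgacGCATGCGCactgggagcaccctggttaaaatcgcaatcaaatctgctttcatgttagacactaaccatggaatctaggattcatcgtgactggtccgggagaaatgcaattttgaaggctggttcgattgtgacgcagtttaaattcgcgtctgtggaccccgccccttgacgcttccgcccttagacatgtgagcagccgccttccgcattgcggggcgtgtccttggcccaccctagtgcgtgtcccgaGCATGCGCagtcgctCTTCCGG
Mrps11, chr7:78782881-78783180, plus strand: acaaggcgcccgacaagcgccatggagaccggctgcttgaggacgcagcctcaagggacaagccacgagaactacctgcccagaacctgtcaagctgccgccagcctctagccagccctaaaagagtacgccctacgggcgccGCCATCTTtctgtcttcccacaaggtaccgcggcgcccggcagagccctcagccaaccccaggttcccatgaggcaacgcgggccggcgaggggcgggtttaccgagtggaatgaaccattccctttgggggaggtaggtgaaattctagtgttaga
Mrpl9, chr3:94443086-94443385, plus strand: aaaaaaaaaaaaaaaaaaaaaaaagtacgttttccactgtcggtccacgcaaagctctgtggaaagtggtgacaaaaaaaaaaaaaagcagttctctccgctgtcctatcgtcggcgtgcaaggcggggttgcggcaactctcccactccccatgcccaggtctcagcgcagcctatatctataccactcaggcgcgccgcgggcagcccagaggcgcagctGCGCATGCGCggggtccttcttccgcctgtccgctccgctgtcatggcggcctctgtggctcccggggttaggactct

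The Mrps12 window holds 1 ETS and 1 YY1 sequence, and the Mrps18b window holds the inner NRF1 letters and the ETS letters. The genes at the opposite ends of the family thus both carry ETS letters. Over the 67 genes, CCGGAAG was found in 26 (38.8%), against 20.2% of 6790 other kept genes and 9.86% of 26958 other genes. AAGATGGC was found in 12 (17.9%), against 5.58% and 3.15%. GCATGCGC was found in 8 (11.9%), against 6.11% and 3.03%, and the full NRF1 sequence, which contains it, in 3 (4.48%), against 2.33% and 1.07%. The ROR letters TAGGTCA or TGGGTCA were found in 5 (7.46%), against 6.44% and 7.35%. Those 5 were Mrpl11, Mrpl18, Mrpl30, Mrpl53 and Mrps18c, with log2 differences of -0.06, 0.07, -0.19, 0.08 and 0.04. ETS and YY1 letters overlapped in 0 members. The 67 include members that were not kept: Mrps22 is among those with ETS letters, and Mrpl32 among those with YY1 and full NRF1 letters. All these matches are letters in a window and no measure of binding.

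Among small-subunit proteins, Mrps12 belongs to the decoding centre, where its bacterial relative is the protein altered in streptomycin resistance. Its signal was 12.98, 13.03 and 13.10 on the transgenic arrays and 12.68, 12.47 and 12.76 on the wild-type arrays. All 3 transgenic values were above all wild-type values. The mean was 13.05 ± 0.06 in transgenic and 12.67 ± 0.13 in wild-type muscle (SD, n = 2 samples each), and the log2 difference was 0.38 ± 0.18 (SE; 95% interval -0.05 to 0.82; limma adjusted p = 0.664). That is 1.30-fold, and it did not pass the test. A second Mrps12 probe, with 12.58, 12.58 and 12.59 on transgenic and 12.32, 12.39 and 12.43 on wild-type arrays, gave a difference of 0.19, also without overlap.

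Mrps10 and Mrps15 are bacterial-type proteins of the small subunit. Mrps10 had 10.73, 10.73 and 11.02 on transgenic arrays, against 10.59, 10.54 and 10.61 on wild-type arrays. Transgenic array 3 was the highest by some distance, the difference was 0.29, and its second probe differed by -0.004. Mrps15 had 10.70, 10.80 and 10.76 on transgenic arrays, against 10.53, 10.64 and 10.51 on wild-type arrays, a difference of 0.20. Its second probe gave 0.21, again without overlap, so both probes of this gene gave small differences of like size. Mrps7, another bacterial-type protein, and Mrps25, a mitochondria-specific one, named here after their values were seen, differed by 0.26 and 0.25 on arrays that overlapped. The other kept Mrps25 probes gave 0.09 with overlap and 0.27 without overlap.

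The 3 mammalian relatives of the bacterial protein S18 sit at different places: Mrps18c keeps the bacterial position, Mrps18b lies elsewhere in the small subunit, and Mrps18a is part of the large subunit. Mrps18b was lowest of the family in difference, with 9.17, 9.47 and 9.63 on transgenic arrays, against 10.01, 9.76 and 9.90 on wild-type arrays. The groups did not overlap, but the transgenic arrays ranged widely, arrays 1 and 2, which count as 1 sample, included. The mean was 9.47 ± 0.22 in transgenic and 9.90 ± 0.01 in wild-type muscle (SD, n = 2 samples each). The small wild-type SD leaves out the gap between wild-type arrays 1 and 2, at 10.01 and 9.76, which were averaged first. The log2 difference was -0.42 ± 0.19 (SE; 95% interval -0.89 to 0.05; limma adjusted p = 0.661), 0.747 of the wild-type level. Mrps18a differed by -0.05 and Mrps18c by 0.04, and both had overlapping arrays. Differences between the 3 relatives were not tested, and with the 6 arrays taken as separate samples Mrps18c was at -0.02, below 0 like Mrps18a and Mrps18b.

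Mrps5, a bacterial-type protein of the small subunit, had 10.10, 10.48 and 10.37 on transgenic arrays and 10.50, 10.53 and 10.50 on wild-type arrays. The wild-type values were close together, and the first transgenic array was the lowest, in a difference of -0.18. The other 2 Mrps5 probes gave -0.07 and 0.01. Mrps21 and Mrps24, also bacterial-type and among the 5 members with the highest signal, differed by -0.13 and -0.03.

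**Figure D3:**
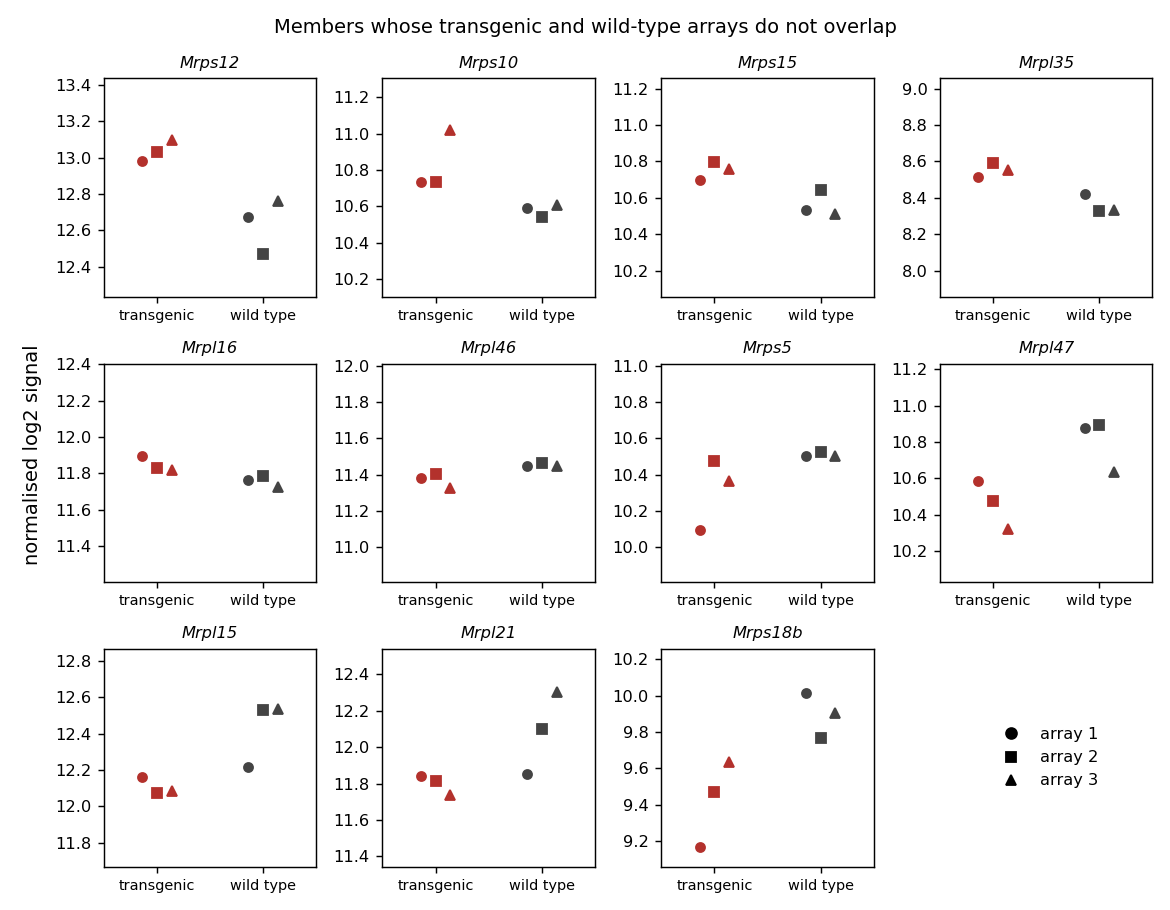
Normalised log2 signal of the 11 genes whose 3 transgenic arrays (red, left) do not overlap their 3 wild-type arrays (grey, right), 1 symbol for each array number. Each panel spans the same height on the log2 scale. The gaps between groups are small, and the differences run from 0.38 for Mrps12 to -0.42 for Mrps18b.

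Of the large-subunit proteins, Mrpl15 had the most probes. Its signal was 12.16, 12.07 and 12.09 on transgenic arrays and 12.22, 12.53 and 12.53 on wild-type arrays, without overlap. Wild-type array 1 was nearer to the transgenic values than arrays 2 and 3. The log2 difference was -0.35 ± 0.18 (SE; 95% interval -0.78 to 0.08; limma adjusted p = 0.686). Its other 3 kept probes gave -0.39, -0.33 and -0.34, so all 4 probes of the gene pointed the same way.

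Mrpl21 and Mrpl47 are bacterial-type proteins of the same subunit. Mrpl21 had 11.84, 11.82 and 11.74 on transgenic arrays, against 11.85, 12.10 and 12.30 on wild-type arrays, a difference of -0.36. Wild-type array 1 lay just above the highest transgenic array, so the gap between the groups was narrow. Mrpl47 had 10.58, 10.48 and 10.32 on transgenic arrays, against 10.88, 10.89 and 10.64 on wild-type arrays, a difference of -0.33, and its second kept probe gave -0.23. In both groups Mrpl47 was lowest on array 3.

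Smaller gaps without overlap were seen in Mrpl46, Mrpl35 and Mrpl16. Mrpl46, a mitochondria-specific protein, had 11.38, 11.40 and 11.33 on transgenic and 11.45, 11.47 and 11.45 on wild-type arrays, a difference of -0.09. Mrpl35 had 8.52, 8.59 and 8.55 on transgenic and 8.42, 8.33 and 8.33 on wild-type arrays, a difference of 0.20, while its second probe gave 0.06 with overlap. Mrpl16 had 11.90, 11.83 and 11.82 on transgenic and 11.76, 11.79 and 11.73 on wild-type arrays, a difference of 0.09. Arrays within a group were close together for Mrpl46 and Mrpl16, so a small gap sufficed to part them.

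Mrpl12 forms the flexible stalk that recruits translation factors and also binds the mitochondrial RNA polymerase, and Mrpl10 anchors that stalk. Mrpl12 had 12.64, 12.74 and 12.58 on transgenic arrays, against 12.65, 12.57 and 12.99 on wild-type arrays, where array 3 was the highest. Its difference was -0.16, and that of Mrpl10, one of the 3 members with the lowest signal, was -0.11. Mrpl58, a hydrolase that frees stalled ribosomes, differed by -0.06. Mrpl57 and Mrpl39, the other 2 members of low signal, differed by 0.16 and 0.19, and Mrpl57 was not detected on 1 of the wild-type arrays. Mrpl51, Mrpl33 and Mrpl23, members of high signal, differed by 0.03, 0.07 and -0.03.

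Probes of the same gene give a second look. Of 22 genes with several kept probes, 14 had all probes on the same side of 0 and 8 did not. The 8 were Mrpl1, Mrpl33, Mrpl37, Mrpl38, Mrpl49, Mrpl51, Mrps5 and Mrps10. Most of these had a difference close to 0 at their brightest probe: -0.004 for Mrpl1, 0.07 for Mrpl33, -0.02 for Mrpl37, 0.02 for Mrpl38, 0.03 for Mrpl49 and 0.03 for Mrpl51. The 1 member probe with an unadjusted p under 0.05 was a dim probe of Mrpl51, with 6.40, 6.82 and 6.09 on transgenic arrays and 7.03, 6.84 and 7.24 on wild-type arrays. Its difference was -0.74 ± 0.24 (SE; limma adjusted p = 0.638), and 1 more Mrpl51 probe gave -0.01. In Mrpl9 the second probe, named here after its values were seen, had 9.71, 9.68 and 9.59 on transgenic and 9.90, 9.93 and 10.17 on wild-type arrays, a difference of -0.40 without overlap, while the brightest gave -0.11 with overlap.

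The family differed more between the wild-type samples than between the transgenic ones. On transgenic array 3, 42 of 70 genes were above transgenic arrays 1 and 2, with a median shift of 0.020. On wild-type array 3, 52 of 70 genes (74.3%) were above the mean of wild-type arrays 1 and 2, with a median shift of 0.162, whereas over all kept genes the shift was -0.0052 and 49.4% were above. Arrays 1 and 2 of the wild-type group differed by a median of 0.0027, with 35 of 70 genes above. In 50 of 70 genes (71.4%) the SD between the wild-type samples was larger than that between the transgenic samples, against 56.0% of all kept genes. The median SD was 0.064 in transgenic and 0.143 in wild-type muscle for the family, and 0.132 and 0.162 for all kept genes. No test was made of these shifts, since each rests on 1 array.

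The side on which the family lay differed with the wild-type sample used. Transgenic arrays 1 and 2 lay above wild-type arrays 1 and 2 in 48 of 70 genes (median 0.049) and above wild-type array 3 in 25 of 70 (median -0.061). Transgenic array 3 lay above wild-type arrays 1 and 2 in 50 of 70 genes (median 0.115) and above wild-type array 3 in 25 of 70 (median -0.062). The shift of wild-type array 3 was 0.215 in the large subunit and 0.084 in the small subunit. For the family it was 0.242 with median centring of the arrays, where all kept genes shifted by 0.038, and 0.147 with no background correction. In the authors' deposited log2 values all kept genes shifted by -0.072 and the family by 0.065, and the small subunit changed sign, to -0.086.

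Cell type markers also differed between these samples. The summed linear signal of the 3 kept brown adipocyte markers, Ucp1, Cidea and Zic1, was 259.3 in transgenic arrays 1 and 2 and 234.4 in transgenic array 3, against 6561 in wild-type arrays 1 and 2 and 10440 in wild-type array 3. The family's sum was also highest on wild-type array 3, but it was lowest in wild-type arrays 1 and 2. There the brown adipocyte sum was above both transgenic sums. The other 4 markers of that list, Elovl3, Dio2, Kng2 and Otop1, were detected on at most 1 array. The 7 slow-fibre markers summed to 101771 and 4778 in the transgenic samples, against 71873 and 63316 in the wild-type samples, with array 3 second in each pair. The 6 kept macrophage markers, which include Adgre1 and the C1q chains, summed to 894 and 1792 in the transgenic samples, against 996 and 801 in the wild-type samples. The adipocyte markers Cidec and Adipoq, 2 of 7 kept, summed to 906 and 3286 in the transgenic samples, against 3415 and 5125 in the wild-type samples. The 4 endothelial markers summed to 2257 and 2013 in the transgenic samples, against 2570 and 1890 in the wild-type samples, and all 4 were lower on wild-type array 3 than in the mean of wild-type arrays 1 and 2. The erythroid markers Alas2 and Hba-a1, 2 of 3 kept, summed to 14665 and 16129 in the transgenic samples, against 18147 and 12418 in the wild-type samples, and both were lower on wild-type array 3 than in that mean. The part of these markers in the family's differences was not tested. Transgenic array 3 differed from transgenic arrays 1 and 2 in the slow-fibre, macrophage and adipocyte sums alike. The family's sums in those samples were close, as given above. That comparison rests on 1 array, and the part of each marker list was not tested.

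**Figure D4:**
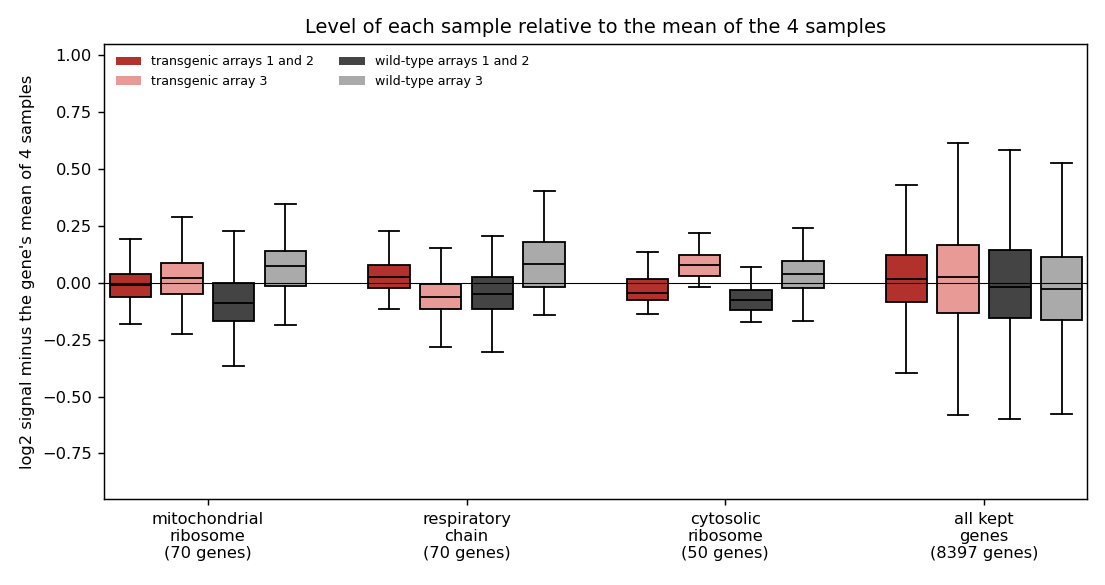
Log2 signal of each gene in each of the 4 samples minus the gene's mean over the 4 samples, for 3 gene families and all kept genes. Boxes span the quartiles with the median as a line, and whiskers reach 1.5 times the box length at most. The wild-type samples of the mitochondrial ribosome lie on either side of 0, with medians of -0.090 for arrays 1 and 2 and 0.075 for array 3, and the transgenic samples lie between them at -0.0092 and 0.022.

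Respiratory chain and ATP synthase subunits, many of which work with products of the mitochondrial ribosome, can be set beside the family array by array. On transgenic array 3 their median shift was -0.089, with 16 of 70 kept genes above arrays 1 and 2, where the mitochondrial ribosomal genes had 42 of 70 above. On wild-type array 3 it was 0.135, with 50 of 70 above. Between transgenic and wild-type muscle their median difference was -0.011, with 33 of 70 above 0 and 0 called in limma. The 3 with the smallest p were Cox6a1, Cox8a and Uqcrq, at -0.91, -0.70 and -0.65, each without overlap and with an adjusted p of at least 0.472 in limma. Cytosolic ribosomal protein genes shifted by 0.126 on transgenic array 3 and by 0.110 on wild-type array 3, and their median difference between the groups was 0.044, with 36 of 50 above 0. These 3 families share arrays and depth, and differences between them were not tested.

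The rest of the mitochondrial translation machinery gave 0 calls in limma as well. Chchd1, Dap3 and Ptcd3, ribosomal proteins with other names, differed by 0.16, 0.06 and 0.05. Of 14 kept genes that charge transfer RNA, 10 were above 0, with a median of 0.071. Pars2, the prolyl enzyme, was at -0.43, Sars2, the seryl enzyme, at 0.32 and Tars2, the threonyl enzyme, at 0.20. Of 14 kept translation factors and related genes, such as Lrpprc, Oxa1l and Mss51, 9 were above 0, with a median of 0.081. Taco1, an activator of Cox1 translation, was at 0.28, Mtfmt, which formylates the initiator transfer RNA, at 0.31 and Lrpprc, which stabilises mitochondrial messages, at -0.35.

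Genes that assemble the ribosome were split, with 9 of 20 above 0 and a median of -0.0081. Ddx28, a helicase of mitochondrial RNA granules, was at -0.41, Mrm3, a methyltransferase of ribosomal RNA, at -0.38 and Grsf1, an RNA-binding protein of the granules, at 0.22. The arrays of Grsf1 did not overlap. In genes that copy and transcribe mitochondrial DNA, 7 of 10 were above 0, with a median of 0.089. Tfam, which packages the DNA and starts its transcription, had 10.79, 10.62 and 10.99 on transgenic and 10.33, 10.44 and 10.61 on wild-type arrays, a difference of 0.35 with no overlap (limma adjusted p = 0.710). Twnk, the helicase, was at 0.27 without overlap, and Polg, the polymerase, at 0.40 with overlap. Of the 10 genes, 3 lay wholly above and 1 wholly below, against 14.2% and 8.22% of all kept genes. The gene below was Ssbp1 at -0.24, named here after its values were seen.

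Of the regulators named with the promoter letters, Gabpa was at 0.34 and Gabpb1, its partner, at -0.51, the last detected on 1 transgenic and 3 wild-type arrays. Nrf1 was at -0.001, and no probe of Yy1 was kept. Esrra, a receptor that drives mitochondrial genes, was at 0.01, and its coactivators Ppargc1a and Ppargc1b were at 0.21 ± 0.26 and -0.34 ± 0.41 (SE). For both coactivators, transgenic arrays 1 and 2 lay above wild-type arrays 1 and 2, while transgenic array 3 lay below wild-type array 3. In this list 3 of 6 kept genes were above 0, with a median of 0.0051.

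Many of these genes share a start region with a neighbour read in the opposite direction. Of the 67 genes with a window, 23 (34.3%) had one that overlapped the window of a gene on the other strand, against 18.7% of other kept genes and 11.8% of all other genes. The 23 include Mrpl32, which was not kept. In 15 of 22 such pairs both genes were kept, and 9 of the 15 had differences of the same sign. Like counts were not made for pairs of other genes, so no link within pairs can be read from them. Over all kept genes 57.5% lay above 0. The transgenic arrays lay wholly above the wild-type arrays in 14.2% of all kept genes and wholly below in 8.22%. In 1 pair both genes had arrays that did not overlap and lay on the same side: Mrps12, at 0.38, and Sars2, at 0.32, whose starts lie 147 bases apart, so that 246 bases of the Mrps12 window printed above also belong to the Sars2 window. Sars2 had 8.04, 7.96 and 7.92 on transgenic arrays, against 7.44, 7.83 and 7.65 on wild-type arrays. It was above the wild-type arrays on every transgenic array, as Mrps12 was, but did not pass the test (limma adjusted p = 0.702).

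In the other pairs with both genes kept this was not seen. Mrps11, whose window is printed above, and Mrpl46 start 42 bases apart and are both members, with differences of 0.01 and -0.09. Mrpl43 and Twnk were at -0.05 and 0.27, Mrpl40 and Hira at 0.16 and 0.49, Mrpl47 and Ndufb5 at -0.33 and -0.16, and Mrps7 and Gga3 at 0.26 and -0.20. In the pair of Mrps5 and Zfp661 the arrays of both genes did not overlap either, but they lay on opposite sides, at -0.18 and 0.24. In the pairs of Twnk and Hira the partner alone lay apart without overlap, and in that of Ndufb5 the member alone, Mrpl47.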

How the data were processed

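Total RNA from quadriceps of 3 transgenic and 3 wild-type arrays was read on 1 Illumina mouse BeadArray chip. The deposited signal table holds linear intensities, and the submitters' processing notes name BeadStudio 2.3.41. The sources used here do not name its background setting. The deposited table also has a detection p-value column, per the file headers. Once signals had been matched back to their probes, these values rose with signal, and they were read as 1 minus p. The authors' second deposited table holds log2 values centred per probe.

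Signals were displaced against probe identifiers by 0 to 21 rows and were matched back through differences between arrays in the log2 table (tolerance 0.002), which placed 46611 of 46632 probes. The correlation of signal with detection was then at least 0.997 (Spearman), against at most 0.0621 as deposited. Symbols came from the platform's annotation table.

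Intensities were normalised with neqc (limma 3.58.1, R 4.3.3; offset 16), and a probe was kept if at least 3 of the 6 arrays detected it with p under 0.05 (14420 probes). Arrays 1 and 2 of a group were averaged (r under 0.1), and limma's lmFit and eBayes compared 2 samples with 2, two-sided, with Benjamini-Hochberg adjustment over kept probes. The number of arrays limits the precision: an exact permutation test of 2 against 2 cannot give a p below 0.333, nor one of 3 against 3 a p below 0.1. Nothing in the labels ties arrays to separate mice, so p-values cover only the spread seen here, which may be technical. For same-numbered arrays of the 2 groups, deviations from the group mean over kept probes correlated at 0.000, 0.023 and 0.062, which does not pair them. Scripts were tested on simulated data.

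Each gene is given by its probe of highest mean. Named were up to 8 members each way whose arrays do not overlap, the 5 brightest and 3 dimmest members, members with probes of opposite sign, Mrpl12, Mrpl58, Mrps12 and the 3 Mrps18 genes, and up to 3 genes of each other list by p; others are said to be named after their values were seen. The members, lists and rules were chosen with earlier results of these data known. Nrf1, Esrra and Ppargc1a are given as background, and genes named for promoter letters or as promoter partners follow from the windows. Promoter sequences are those of RefSeq on GRCm38.p6, and protein sequences were not used here. Alternatives tried are given in the closing section.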

Additional observations from a re-analysis of the deposited data

How the results depend on the processing

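Mitochondrial ribosomal protein probes called by limma numbered 0 under every alternative run, with smallest adjusted p-values from 0.219 (6 separate arrays) to 0.9998 (without transgenic array 3). Over all kept probes the count was 1 for the averaged samples. It was 54 with 6 separate arrays and 13 when arrays of an RNA sample formed a random block. It was 9 with offset 50, 8 when no background was taken off, 3 after median centring, 7 from the authors' log2 table, 0 for probes detected on all 6 arrays, 10 with an intensity trend and 3 at an adjusted p under 0.10. With the replicate number as a block it was 1 for the averaged samples and 15 for the 6 arrays, and the block changed no call of a member; samples share only a number. Leaving out 1 array gave 1 to 8, the 8 without transgenic array 3. Without array 3 of a group that group has 1 sample, which is assumed to vary like the other group's samples, so the 0 member calls there say little about stability. The cause of these changes was not tested. The family median was 0.017 with the averaged samples and all arrays. Leaving out 1 array gave -0.0023 to 0.092, with 35 to 50 of 70 genes above 0. The highest of these came without wild-type array 3. The shift of wild-type array 3 was 0.065 in the authors' log2 table and between 0.147 and 0.242 in the other settings; these scalings were chosen after seeing the data. Of 270 values of 15 named genes under 18 alternatives, 262 kept their direction and 8 did not. These counts say little about stability. Of the 15 genes, 11 have arrays that do not overlap, so leaving out an array cannot turn their direction. Some alternatives change only the p or the filter and leave the differences as they are. The values that turned were those of Mrps18c, Mrpl12, Mrpl58 and Mrps18a. Mrps18c was at -0.0204 with 6 arrays, with and without the replicate block, and ran from -0.0636 without transgenic array 3 to 0.0874 without wild-type array 1, with -0.0161 without wild-type array 2 and -0.0331 without wild-type array 3. Leaving out 1 array, Mrpl12 ran from -0.1866 to 0.0234, Mrpl58 from -0.1314 to 0.1221 and Mrps18a from -0.0888 to 0.0749, each above 0 only without wild-type array 3. Median centring moved the median of all probes by 0.01. Signal limits what can be said of the 6 genes that were not kept and of the dim second probes.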

Other observations

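The members with the largest shift on wild-type array 3 against wild-type arrays 1 and 2, named after their values were seen, were Mrpl34 at 0.71, Mrpl18 at 0.54 and Mrps16 at 0.50, all bacterial-type. Mrpl34 had 10.91, 10.86 and 10.86 on transgenic arrays and 10.41, 10.58 and 11.21 on wild-type arrays, so the transgenic arrays lay within the wild-type range and the difference between the groups was 0.02. Mss51, a mitochondrial protein of skeletal muscle counted above with the translation factors and related genes, was also singled out here after its values were seen. It had 10.98, 11.13 and 9.92 on transgenic and 9.71, 9.51 and 10.57 on wild-type arrays. Array 3 was below arrays 1 and 2 in the transgenic group and above them in the wild-type group, and the difference between the groups was 0.40 ± 0.46 (SE).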
